A study of Mus musculus with 64 samples.

Results

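Cholesterol synthesis genes were followed in 4 tissues of stressed and unstressed mice. The set holds 7 genes picked by symbol, with earlier results of these data known: Hmgcs1, Idi1, Fdft1, Sqle, Cyp51, Dhcr7 and Insig1. They are 7 of the 17199 genes listed in any of the 4 deposited tables. The tables for prefrontal cortex (15697 genes), hippocampus (15573) and hypothalamus (16155) list all 7. The whole blood table (8830 genes) lists 6 and lacks Sqle.

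All animals were male BALB/c mice aged 28 weeks. One group lived for 9 weeks under unpredictable chronic mild stress (UCMS), a schedule of varying mild stressors used to model depression in mice, and the other, the controls, was left without it. Collection fell 14 to 16 hours after the final stressor, at ZT12.5 to ZT14.5 (hours after lights-on). Each brain region came from 8 control and 8 UCMS animals, the same 16 animals in all 3 regions, and blood came from 7 control and 9 UCMS animals. Of 17 animals in all, 15 gave both brain and blood.

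Cells make cholesterol from acetyl-CoA in a long chain of enzymes. The genes of that chain share a control: when sterols run low in the endoplasmic reticulum, the protein SCAP carries SREBP-2 to the Golgi, where it is cut into an active transcription factor, and when sterols are plentiful the INSIG proteins hold SCAP back. Plasma cholesterol hardly enters the brain, which makes its own, with astrocytes and myelinating oligodendrocytes as large producers, and much of it ends up in myelin.

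In order of the chain, Hmgcs1 encodes HMG-CoA synthase, which makes HMG-CoA for the mevalonate route. Idi1 encodes the isomerase that interconverts the isoprenoid building blocks. Fdft1 encodes squalene synthase, the first step committed to sterols, and Sqle encodes squalene epoxidase, a control point of the sterol part of the chain. Cyp51 encodes lanosterol 14-alpha-demethylase and Dhcr7 the reductase that makes cholesterol from 7-dehydrocholesterol. Insig1 is no enzyme of the chain: it encodes an inhibitor of SREBP processing and is itself a target of SREBP.

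In the GENCODE M21 annotation of GRCm38 all 7 are protein-coding genes. Hmgcs1 lies at chr13:119690379-119708260 (+), Idi1 at chr13:8885501-8892451 (+), Fdft1 at chr14:63145150-63179578 (-) and Sqle at chr15:59315077-59331192 (+). Cyp51 lies at chr5:4081145-4104746 (-), Dhcr7 at chr7:143823145-143848410 (+) and Insig1 at chr5:28071363-28078662 (+). Fdft1 overlaps Ctsb, Cyp51 overlaps Akap9, Hmgcs1 overlaps the antisense gene Gm48342 and Idi1 overlaps Gm48574, each on the opposite strand. Whether reads were counted by strand is not given in the sources used here, so reads from the overlaps cannot be told apart.

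Because these genes share a regulator, their promoters are shown for the elements through which SREBP and its partner factors bind. The RefSeq promoter table (GRCm38.p6) held 5 of the 7. Each line gives the 250 bases before the annotated start, 5′ to 3′ on the gene's strand, and capitals mark a sterol regulatory element (TCACNCCAC) or a CCAAT box (CCAAT) on either strand, so that ATTGG is CCAAT on the opposite strand. The windows are chr13:119690101-119690350 (+) for Hmgcs1, chr13:8885356-8885605 (+) for Idi1, chr5:4104698-4104947 (-) for Cyp51, chr7:143829964-143830213 (+) for the last of 3 annotated starts of Dhcr7, and chr5:28071162-28071411 (+) for Insig1.
Hmgcs1: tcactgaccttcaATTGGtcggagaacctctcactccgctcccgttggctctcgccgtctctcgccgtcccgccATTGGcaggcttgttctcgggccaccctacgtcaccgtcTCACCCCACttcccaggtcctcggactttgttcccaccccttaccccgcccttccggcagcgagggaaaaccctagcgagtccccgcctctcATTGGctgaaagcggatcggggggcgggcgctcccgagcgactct
Idi1: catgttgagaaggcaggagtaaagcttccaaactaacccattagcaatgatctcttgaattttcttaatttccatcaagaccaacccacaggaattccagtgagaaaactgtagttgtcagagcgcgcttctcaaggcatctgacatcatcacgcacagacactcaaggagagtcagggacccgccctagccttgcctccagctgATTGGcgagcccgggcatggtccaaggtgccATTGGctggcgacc
Cyp51: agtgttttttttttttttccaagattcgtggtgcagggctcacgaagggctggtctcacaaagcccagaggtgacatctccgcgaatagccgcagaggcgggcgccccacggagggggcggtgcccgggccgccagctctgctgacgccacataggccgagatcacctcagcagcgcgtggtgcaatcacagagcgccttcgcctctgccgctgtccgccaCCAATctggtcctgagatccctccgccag
Dhcr7: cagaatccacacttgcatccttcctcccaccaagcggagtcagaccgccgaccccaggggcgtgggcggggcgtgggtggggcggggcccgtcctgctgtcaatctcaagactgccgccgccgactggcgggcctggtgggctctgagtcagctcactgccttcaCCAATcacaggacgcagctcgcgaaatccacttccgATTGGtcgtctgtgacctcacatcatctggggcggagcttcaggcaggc
Insig1: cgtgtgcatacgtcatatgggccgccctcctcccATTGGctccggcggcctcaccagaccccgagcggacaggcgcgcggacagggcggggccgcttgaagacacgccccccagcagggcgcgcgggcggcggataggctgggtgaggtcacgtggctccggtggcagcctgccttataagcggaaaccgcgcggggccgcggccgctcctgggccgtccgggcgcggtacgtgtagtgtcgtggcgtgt

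The sterol element occurred in 1 of the 5, Hmgcs1, where it begins at position -137 from the start (TCACCCCAC). It was present in 1.44% of the 27025 genes of the table, counting the 50 bases after the start as well, and in 0 of 13 other enzymes of the pathway. By window it was in 1.24% of all 32851. A CCAAT box was in all 5, and in 12 of 13 other enzymes, against 41.1% of the 27025 genes of the table. The Sp1 box GGGCGG (not capitalised above, either strand, its matches in the 5 windows overlapping none of the capitals) was likewise in 5 of 5 and in 11 of 13, against 38.2% of genes. RefSeq and GENCODE starts differ, and the windows of Idi1, Cyp51 and Insig1 reach past the GENCODE start of the gene given above. The Dhcr7 window shown lies wholly inside the gene as given above, before a later annotated start, and it alone of the 3 Dhcr7 windows of the table holds the CCAAT box. These are letter matches in short windows and were not measured as binding.

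Levels below are the deposited normalised log2 values, 1 per gene and library. Depth is unknown, and levels of different genes were not compared because gene length was not accounted for. Every brain table listed all 8 neuron, 10 myelin and 9 astrocyte markers examined, and the blood table listed all 5 reticulocyte, 5 neutrophil and 5 T cell markers but 0 of 6 markers of oligodendrocyte precursors. Being listed does not by itself separate the tissues. The blood table also listed 3 of 8 neuron, 4 of 10 myelin and 2 of 9 astrocyte markers. The hypothalamus table also listed all 5 reticulocyte and 5 neutrophil markers. No marker separating the 3 brain regions was examined. In bulk tissue, fewer cells of a type and less RNA per cell cannot be told apart. Some brain libraries stood apart by hemoglobin RNA: Hbb-bs was at 14.0 to 14.6 in 9 libraries of 4 animals and at 4.02 to 9.63 in the other 39. By region these were, in prefrontal cortex, control 1 and UCMS 6; in hippocampus, the same with control 7 added; and in hypothalamus, those of hippocampus with UCMS 8 added (replicate numbers).

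All 7 genes had their highest mean level in hypothalamus, then prefrontal cortex, then hippocampus, and the 6 in the blood table were lowest there. The tables were normalised separately, so this order was not tested, and blood levels in particular are set against a smaller gene table. Over all libraries of a tissue, Hmgcs1 averaged 6.65 ± 0.12 in hypothalamus, 6.49 ± 0.12 in prefrontal cortex, 6.31 ± 0.10 in hippocampus and 2.69 ± 0.70 in blood (mean ± SD, n = 16 each). Between neighbouring brain regions in this order, the ranges of single libraries overlapped for every member but one: Insig1 ran from 5.66 to 6.25 in hypothalamus and from 4.97 to 5.37 in prefrontal cortex. Between hippocampus and blood they did not overlap for Hmgcs1, Fdft1, Dhcr7 and Insig1, and did overlap for Idi1 and Cyp51.

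Idi1 averaged 4.45 ± 0.20 in hypothalamus, 4.10 ± 0.23 in prefrontal cortex, 4.01 ± 0.18 in hippocampus and 3.14 ± 0.73 in blood. Fdft1 averaged 6.01 ± 0.18, 5.71 ± 0.12, 5.44 ± 0.083 and 2.74 ± 0.45 in the same order. Both share the order of Hmgcs1, with Fdft1 set farther from its blood level. Sqle averaged 5.34 ± 0.15, 4.89 ± 0.13 and 4.84 ± 0.16 in hypothalamus, prefrontal cortex and hippocampus. Cyp51 averaged 5.01 ± 0.12, 4.70 ± 0.13 and 4.40 ± 0.15, with 3.12 ± 0.64 in blood (SD, n = 16 each). Dhcr7 averaged 4.52 ± 0.16, 4.23 ± 0.14 and 4.22 ± 0.14, so that prefrontal cortex and hippocampus were nearly level. Its mean of 2.36 ± 0.62 in blood was under the level of 2.48 below which the lowest 10% of genes were left out, and it was not tested there. Insig1 averaged 5.95 ± 0.19, 5.19 ± 0.12, 5.08 ± 0.090 and 3.89 ± 0.59, with hypothalamus apart from the rest. In the brain, SDs of the members lay between 0.083 (Fdft1 in hippocampus) and 0.23 (Idi1 in prefrontal cortex). In blood they lay between 0.45 and 0.73 for the 5 tested members, wider than for 64.0% to 96.5% of the genes tested in that tissue. Those genes include every level, while the 5 members had means of 2.69 to 3.89, not far above the cut of 2.48. SDs of genes at like levels were not compared.

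**Figure D1:**
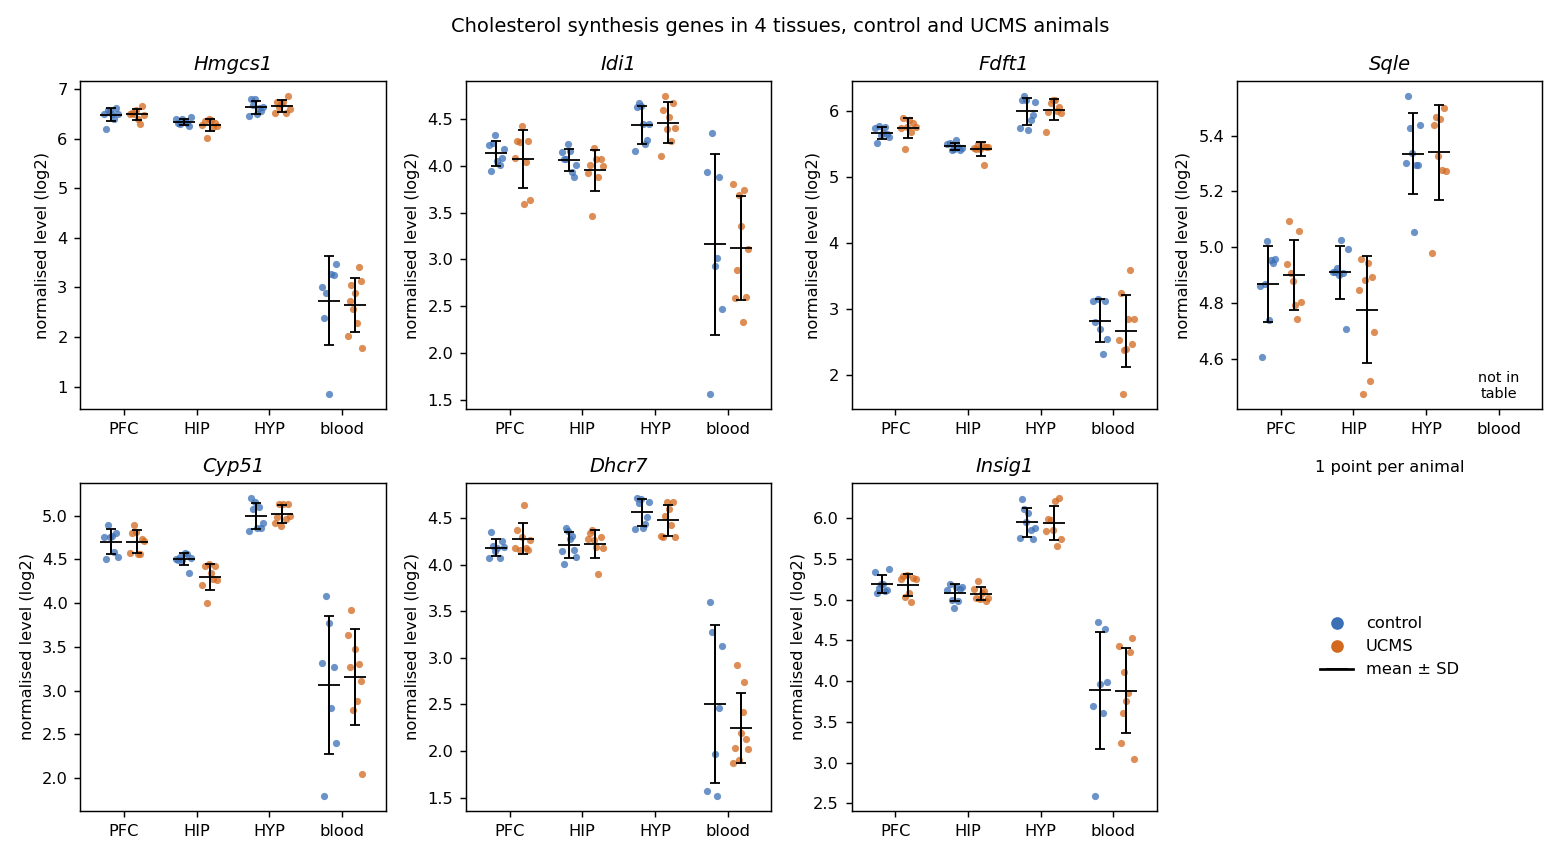
Normalised log2 level of each gene (y axis, own scale per panel) in prefrontal cortex (PFC), hippocampus (HIP), hypothalamus (HYP) and blood; 1 point per animal, bars give mean ± SD of 8 control or 8 UCMS animals (7 and 9 in blood). Control and UCMS points lie over each other in nearly every panel, with Cyp51 in hippocampus the pair that overlaps least, and blood values spread most.

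The first question was whether these genes differed between UCMS and control animals. Of the 7 members, 0 passed the adjusted threshold in any tissue in limma with Benjamini-Hochberg adjustment over all genes of a tissue, and neither did any other gene tested (0% of 14127, 14015, 14539 and 7947 genes in prefrontal cortex, hippocampus, hypothalamus and blood, and 0% of 13517 for the mean of the 3 regions in each animal). At an unadjusted p under 0.05 there was 1 member, Cyp51 in hippocampus, where 1.28% of all genes were lower in UCMS animals at that p. In either direction, 2.18%, 2.95%, 2.12% and 10.8% of all genes were under it in the 4 tissues, and 3.62% for the brain mean.

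Cyp51 in hippocampus ran from 4.34 to 4.58 in controls, with a median of 4.51, and from 4.0 to 4.44 in UCMS animals, with a median of 4.31. The groups overlapped through 1 control library, replicate 7, at 4.34. The next lowest controls, at 4.50, were above every UCMS value. The mean difference of UCMS minus control was -0.20 (SE 0.061, 95% interval -0.33 to -0.077) on the log2 scale, with unadjusted p = 0.0036, exact permutation p = 0.0026 and limma adjusted p = 0.99. Leaving out any 1 library kept the difference between -0.23 and -0.16, with limma's unadjusted p between 0.0018 and 0.0082. Without the 3 hemoglobin-rich libraries it was -0.23 (unadjusted p = 0.0055). Akap9, the overlapping gene on the other strand, differed by 0.064 (SE 0.071, unadjusted p = 0.38).

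The effect on Cyp51 was then compared between regions in the same 16 animals. It was more negative in hippocampus than in hypothalamus by 0.22 (95% interval 0.029 to 0.42, unadjusted p = 0.027, limma adjusted p = 1 over all genes). Against prefrontal cortex the effect in hippocampus differed by -0.21 (-0.42 to 0.0017, unadjusted p = 0.052). Of all genes, 2.26% had an unadjusted p under 0.05 for hypothalamus minus hippocampus, 1.61% for hippocampus minus prefrontal cortex and 2.43% for hypothalamus minus prefrontal cortex. No difference between regions passed the adjusted threshold for a member, and 0% of all genes did in any of the 3 pairs of regions.

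Upstream in the chain, Hmgcs1 lay at 6.25 to 6.43 (median 6.33) in hippocampus of controls and at 6.01 to 6.40 (median 6.30) in UCMS animals, with 1 UCMS library, replicate 3, well below the rest. The difference was -0.063 (95% interval -0.17 to 0.046). Sqle ran from 4.71 to 5.03 (median 4.91) in control hippocampus and from 4.47 to 4.96 (median 4.86) in UCMS hippocampus. Most values of the groups overlapped and the difference was -0.13 (-0.29 to 0.022, unadjusted p = 0.089).

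In hippocampus 1 of 7 members had a mean above that of controls and 6 had one below it, with a median difference of -0.063, while 50.1% of all genes tested were above and the median gene differed by 0.00038. In prefrontal cortex and in hypothalamus 5 of 7 were above (all genes 52% and 50.5%), with medians of 0.011 and 0.018. In blood 1 of the 5 tested was above (all genes 48.5%), and for the brain mean 2 of 7 were (all genes 51%). None of these counts is a test, and most of the differences were small: the largest in prefrontal cortex was Dhcr7 at 0.097 (-0.052 to 0.25) and in hypothalamus Dhcr7 again at -0.086 (-0.25 to 0.075). Without UCMS replicate 5 the Dhcr7 difference in prefrontal cortex was 0.045.

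Intervals show what sizes the data leave room for. In the brain mean, the widest was that of Idi1, at -0.048 (-0.18 to 0.082), and Cyp51 was at -0.061 (-0.13 to 0.013). In blood they were several times wider. Fdft1 differed there by -0.15 (-0.64 to 0.33), Cyp51 by 0.097 (-0.52 to 0.71) and Insig1 by -0.0056 (-0.57 to 0.56).

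**Figure D2:**
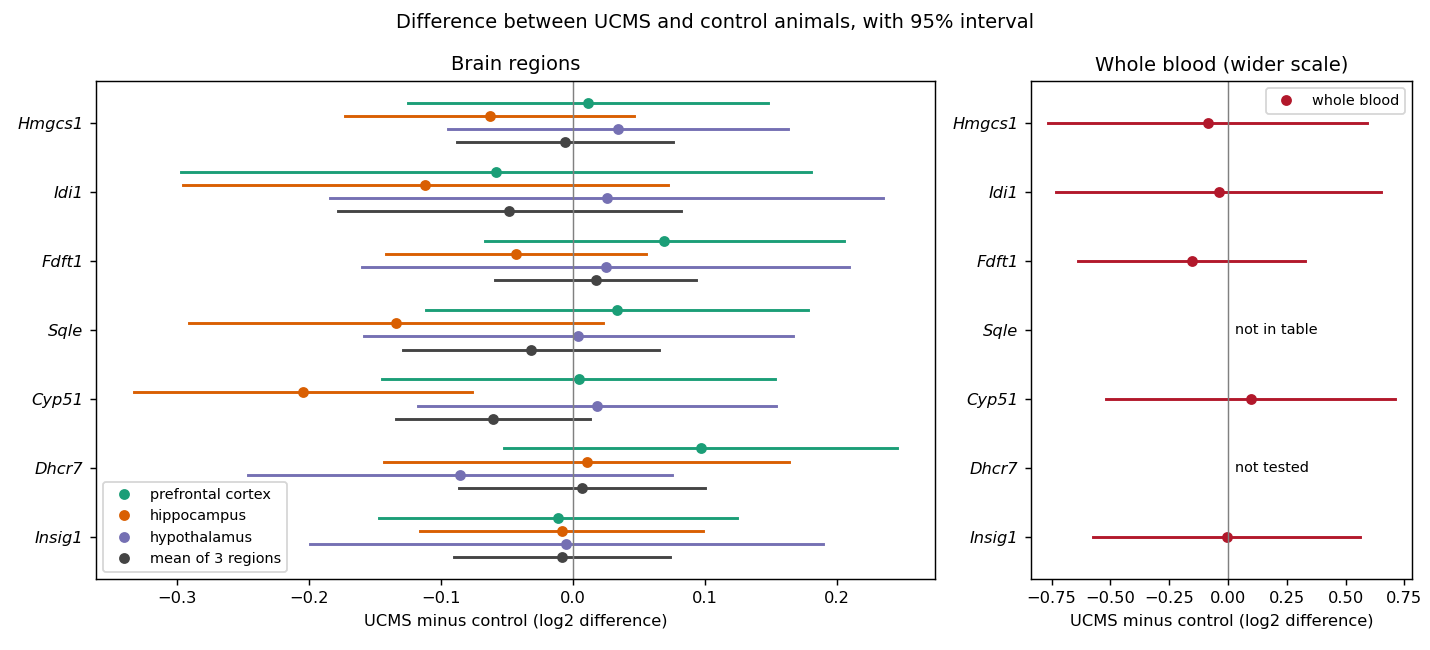
Difference of UCMS minus control (x axis, log2) for each gene, with 95% intervals from limma, in 3 brain regions and their mean per animal (left) and in blood on a wider scale (right). The interval of Cyp51 in hippocampus, -0.33 to -0.077, is the one that does not reach 0.

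The second question was whether the genes moved together across animals. Within each tissue every pair of members was correlated over the 16 libraries, controls and UCMS together, in 73 relations over the 4 tissues, with permutation p values adjusted over all 73. In hypothalamus 21 of 21 pairs had r above 0, with r from 0.43 to 0.81 and a median of 0.69, and 16 pairs passed the adjusted threshold. In hippocampus 6 of 21 pairs passed, in prefrontal cortex 2 of 21 and in blood 3 of 10. Without the hemoglobin-rich libraries 4 pairs passed in hypothalamus, 5 in hippocampus and 2 in prefrontal cortex. Whether these counts differ between tissues was not tested.

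For scale, over all pairs of genes tested in a tissue the median r was 0.032 in hypothalamus, 0.011 in hippocampus, 0.0020 in prefrontal cortex and -0.0085 in blood. The share of all gene pairs with an r at or above the lowest r called among members was 3.43%, 1.7%, 2.56% and 3.89% in that order. In hypothalamus 1.62% of all pairs reached the members' median of 0.69. In hippocampus 31.7% reached the members' median of 0.21, in prefrontal cortex 20.9% reached 0.33 and in blood 27.7% reached 0.20.

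Hypothalamic Sqle and Fdft1, which act one after the other on squalene, gave the highest r of that region. Sqle ran from 5.06 to 5.54 in controls (median 5.32) and from 4.98 to 5.50 in UCMS animals (median 5.38). Fdft1 ran from 5.72 to 6.23 (median 6.03) and from 5.68 to 6.17 (median 6.03). Both genes were lowest in UCMS replicate 1 and next lowest in control replicate 5. Across the 16 animals r was 0.81 (rho 0.71, permutation p = 0.00014, adjusted p = 0.0044) and 0.59 without the 2 animals farthest from the median of Sqle.

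Other hypothalamic pairs were close behind. Fdft1 and Dhcr7, an early and a late enzyme, had r = 0.79 (rho 0.74, permutation adjusted p = 0.0066). Hmgcs1 and Idi1, both of the mevalonate and isoprenoid part, had r = 0.77 (rho 0.74, permutation adjusted p = 0.0066). Hmgcs1 passed with every one of the other 6 members. The lowest r of the region, 0.43, was that of Fdft1 with Insig1 (rho 0.54, permutation adjusted p = 0.18). Of the 16 called pairs, all 16 kept their sign without the 2 animals farthest from the median, and by Spearman's rho 16 pairs passed as well. Within the 8 control animals r lay between 0.30 and 0.97, and within the 8 UCMS animals between 0.39 and 0.92.

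The order of animals shows which libraries carried this. By the mean z-score of the 7 genes in hypothalamus, the lowest libraries were UCMS replicate 1 (-1.42) and control replicate 1 (-1.20), and the highest were control replicate 2 (1.30) and UCMS replicate 7 (1.17). High and low animals came from both groups. The median of the controls was -0.13 (range -1.20 to 1.30) and that of the UCMS animals 0.088 (range -1.42 to 1.17).

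All 4 hemoglobin-rich hypothalamic libraries were below 0, from -1.20 to -0.56, while 3 of the other 12 were. Without those 4, all 21 pairs still had r above 0, from 0.35 to 0.85 with a median of 0.62, and 4 pairs passed over 12 animals. Leaving out any 1 library left 21 of 21 pairs above 0, a median r of 0.64 to 0.71 and 11 to 17 called pairs.

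**Figure D3:**
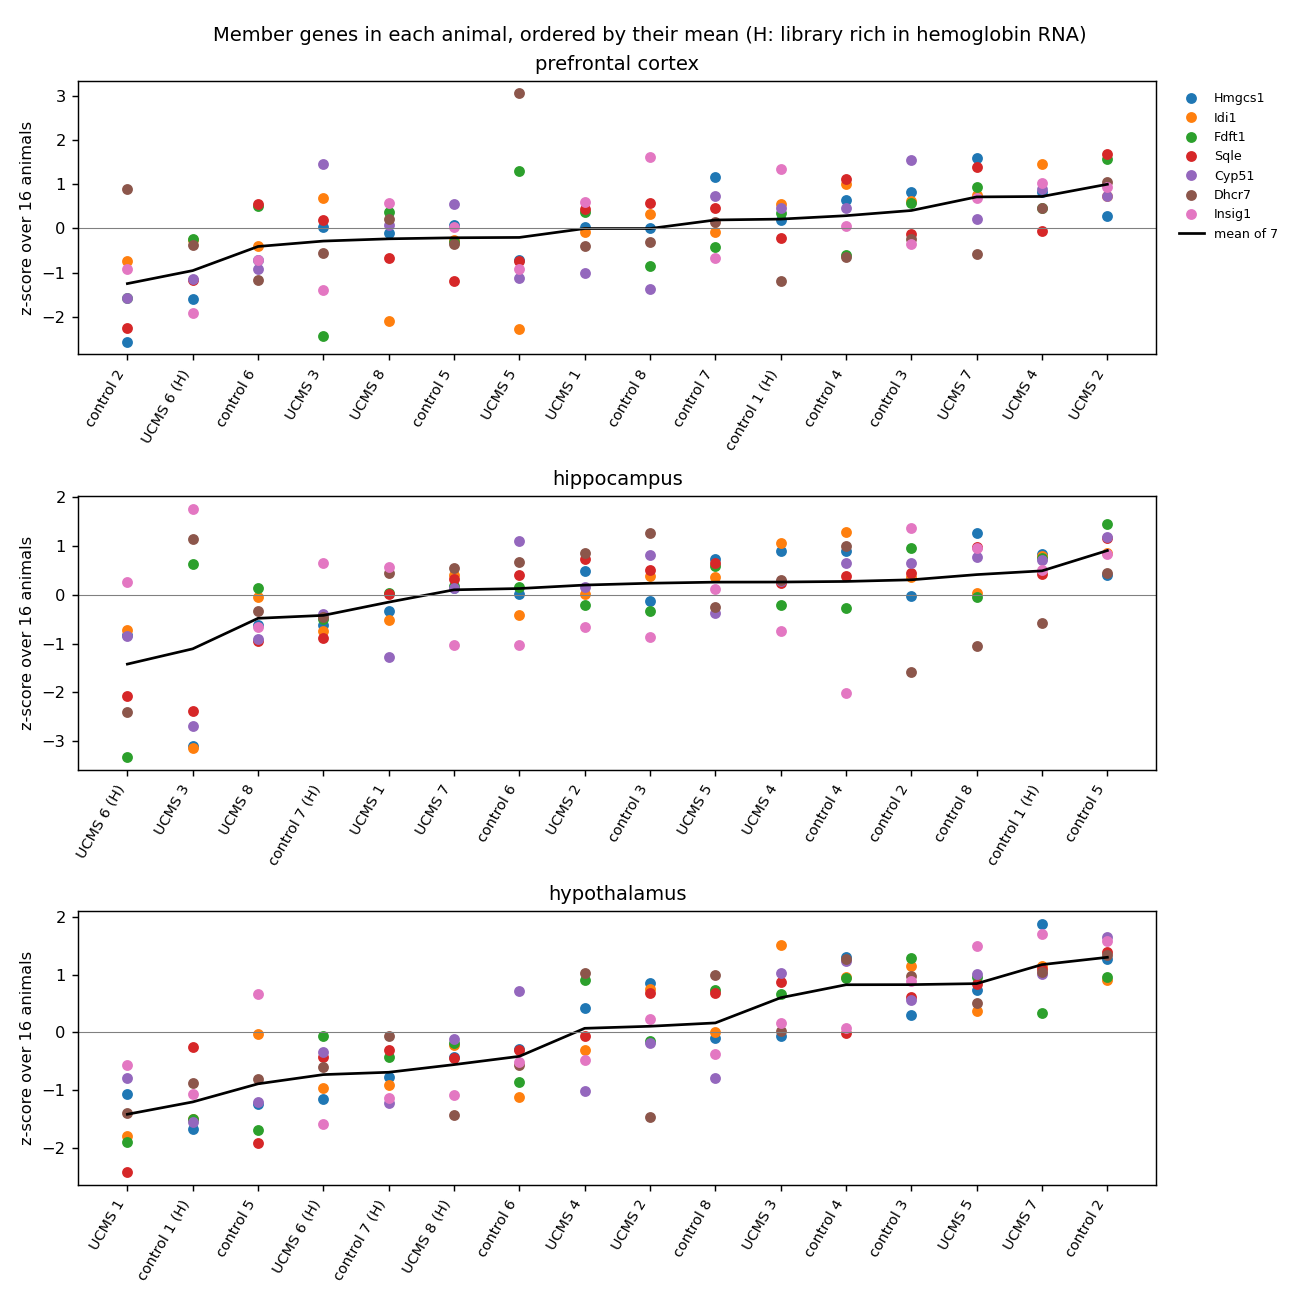
z-score of each of the 7 genes over 16 animals (y axis) in the 3 brain regions, with animals ordered by the mean of the 7 (black line); H marks hemoglobin-rich libraries. In hypothalamus the mean of the 7 runs from UCMS 1 (-1.42) to control 2 (1.30), and single genes lie apart from it in some animals. Against the mean of the other members, Dhcr7 had r = -0.27 in prefrontal cortex and 0.029 in hippocampus. Insig1 had r = 0.47 and -0.41 in the same order.

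In hippocampus the 6 called pairs were all those among Hmgcs1, Sqle, Idi1 and Cyp51. By Spearman's rho 4 pairs of the region passed. Hmgcs1 and Idi1 had r = 0.90 (rho 0.74, permutation adjusted p = 0.0044, 0.83 without 2 animals), the highest of any tissue. Hmgcs1 and Sqle had r = 0.85 (rho 0.67, permutation adjusted p = 0.00073). Sqle and Cyp51 had r = 0.82 (rho 0.76, permutation adjusted p = 0.0044).

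Insig1 went the other way from Idi1, Hmgcs1 and Cyp51 in hippocampus. Its r with Idi1 was -0.53 (permutation p = 0.029, adjusted p = 0.074), with Hmgcs1 -0.42 and with Cyp51 -0.38. Within the 8 UCMS animals these were -0.89, -0.80 and -0.91, and within the 8 controls -0.26, -0.059 and -0.18. UCMS replicate 3 held the lowest Hmgcs1 (6.01), Idi1 (3.46) and Cyp51 (4.0) and the highest Insig1 (5.23) of the region. None of the pairs with Insig1 passed, and without the 2 animals farthest from the median the r with Idi1 was -0.062 and with Cyp51 0.012. Over the 13 libraries not rich in hemoglobin RNA, Insig1 had r = 0.66 with Fdft1 (rho 0.57, permutation adjusted p = 0.061). With every other member it was below 0 there.

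The hippocampal pairs depended on single libraries as a set. Without UCMS replicate 3 the median r of the 21 pairs was 0.44 and 5 pairs passed. Without UCMS replicate 6, a hemoglobin-rich library with the lowest Fdft1 (5.18) and Dhcr7 (3.90) of the region, the median was -0.11 and 6 passed. Without all 3 hemoglobin-rich libraries it was -0.17, with 7 of 21 pairs above 0. Leaving out 2 further animals took Sqle with Idi1 from r = 0.80 to 0.15. Hmgcs1 with Cyp51 went from 0.78 to 0.37 and Idi1 with Cyp51 from 0.78 to 0.38. The other pairs of the 4 genes were at 0.56 to 0.72. By Spearman's rho over those 13 libraries, the lowest permutation adjusted p of the region was 0.12.

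In prefrontal cortex Hmgcs1 passed with Sqle (r = 0.72, rho 0.55, permutation adjusted p = 0.0079) and with Cyp51 (r = 0.70, rho 0.75, permutation adjusted p = 0.0079). Dhcr7 had r below 0 with 5 of 6 members, down to -0.52 with Idi1. UCMS replicate 5 had the highest Dhcr7 there (4.64), and without that library the lowest r of any pair was -0.18. Without control replicate 2, which had the lowest Hmgcs1 (6.20), 1 pair passed and the median r was 0.15 in place of 0.33.

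In blood the called pairs were Idi1 with Insig1 (r = 0.66, rho 0.52, permutation adjusted p = 0.020), Cyp51 with Insig1 (r = 0.61, rho 0.39, adjusted p = 0.036) and Idi1 with Cyp51 (r = 0.59, rho 0.50, adjusted p = 0.044). All 3 rested on few animals. Without 2 animals they were 0.35, 0.19 and 0.24, and by Spearman's rho 0 of the 10 pairs passed. Leaving out control replicate 2 or control replicate 3 left 0 called pairs, and leaving out UCMS replicate 1 left 1. From control replicate 3 on, the same number stands for different control animals in blood and brain. Blood control replicate 3 was animal C4 and brain control replicate 3 was C3. UCMS replicate 8 was BS1 in blood and BS2 in brain.

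**Figure D4:**
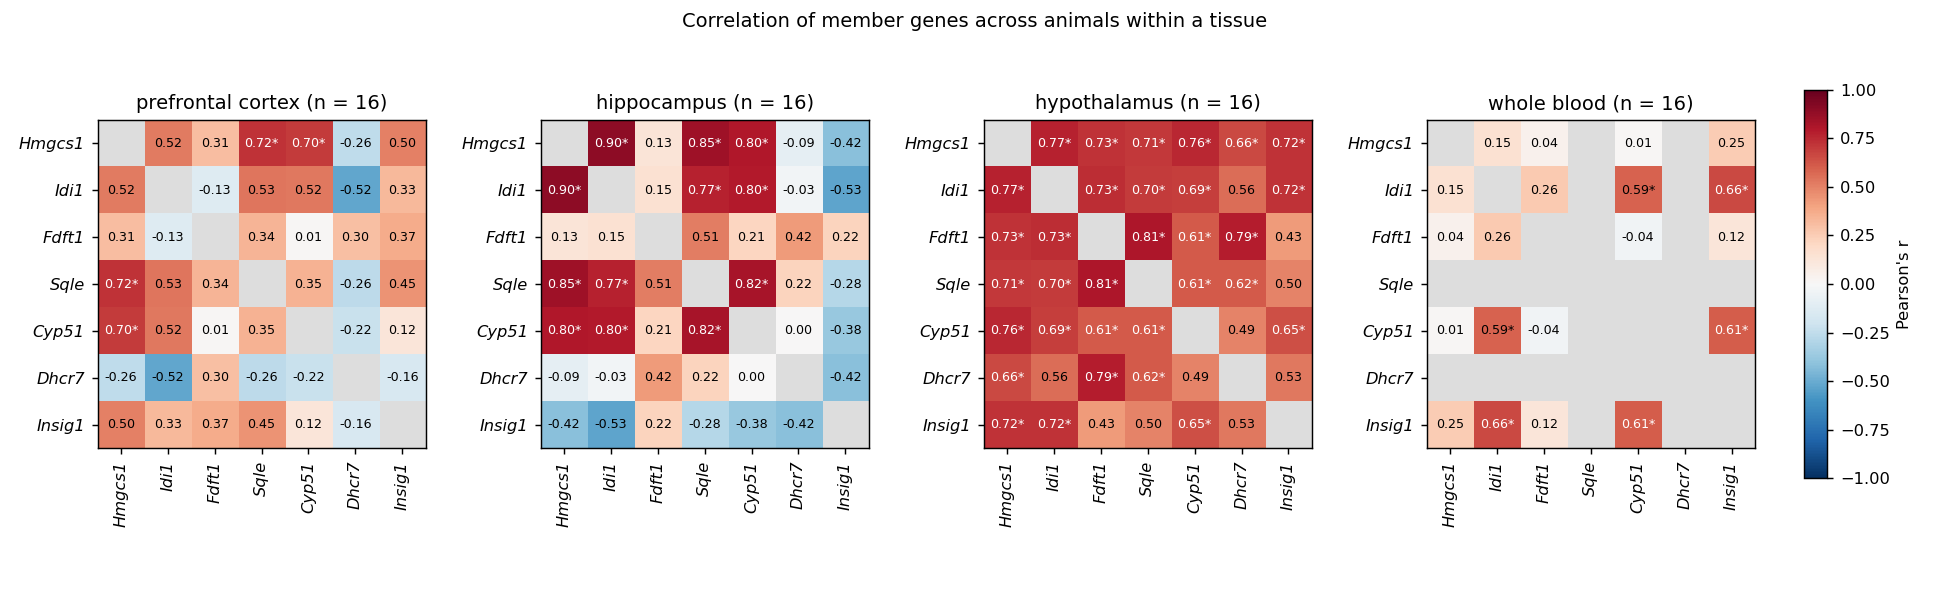
Pearson's r of each pair of genes over 16 animals in each tissue, colour from -1 (blue) to 1 (red); * marks an adjusted permutation p under 0.05 and grey marks genes not in the table or not tested. Every cell is positive in hypothalamus (0.43 to 0.81), a block of Hmgcs1, Idi1, Sqle and Cyp51 is seen in hippocampus, and few cells are marked in prefrontal cortex and blood.

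Set against the mean of the other members, Hmgcs1 had r = 0.87 in hypothalamus, in place 11 of 14531 genes ranked by that r, and r = 0.79 in prefrontal cortex, in place 8 of 14120. In hippocampus Sqle led with r = 0.94, in place 1 of 14007. Dhcr7 had r = 0.71 in hypothalamus, 0.029 in hippocampus and -0.27 in prefrontal cortex. Insig1, the inhibitor, had 0.69, -0.41 and 0.47 in the same order.

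It was then asked whether animals kept their place from tissue to tissue. The same gene was correlated between each pair of tissues over the animals that had both, in 36 relations, and 0 passed the adjusted threshold or an unadjusted permutation p under 0.05. Over the 7 genes the median r was 0.071 between prefrontal cortex and hypothalamus, -0.025 between hippocampus and hypothalamus and -0.097 between prefrontal cortex and hippocampus. All genes tested had medians of 0.11, 0.10 and 0.070. Between prefrontal cortex and blood, r was above 0 for 5 of 5 genes (0.14 to 0.51, 15 animals), where 47.3% of all genes tested were and their median was -0.018. Between hippocampus and blood 2 of 5 were above 0 (median -0.17), and between hypothalamus and blood 1 of 5 (median -0.11).

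The 16 other enzymes of the pathway, none of them a member, were set against the members' mean z-score as a description. In hypothalamus 15 of 16 had r above 0, with a median of 0.65 where the median of all other genes was 0.18. Among the highest were Acat2 (0.87), which makes acetoacetyl-CoA, the C-4 methyl sterol oxidase Msmo1 (0.86) and the farnesyl diphosphate synthase Fdps (0.80). Lbr, which has a sterol reductase domain and sits in the nuclear envelope, was at -0.38.

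In prefrontal cortex 14 of the 16 enzymes had r above 0 (median 0.29, all other genes 0.038), and in hippocampus 7 of 16 did (median -0.089, all other genes 0.027). Msmo1 was among the few high in every region, with 0.60, 0.82 and 0.86 in prefrontal cortex, hippocampus and hypothalamus. Fdps went from 0.80 in hypothalamus to -0.24 in hippocampus.

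Among 16 tested regulators and uptake genes, 14 had r above 0 in hypothalamus (median 0.46), 7 in prefrontal cortex and 6 in hippocampus. Srebf2, which encodes SREBP-2 itself, had r = 0.74 in hypothalamus and -0.40 in hippocampus. Stard4, a carrier of sterols between membranes, had 0.79 in hypothalamus and 0.62 in hippocampus. All 9 fatty acid genes had r above 0 in hypothalamus (median 0.53), and 6 of 8 genes of efflux and turnover did (median 0.071).

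**Figure D5:**
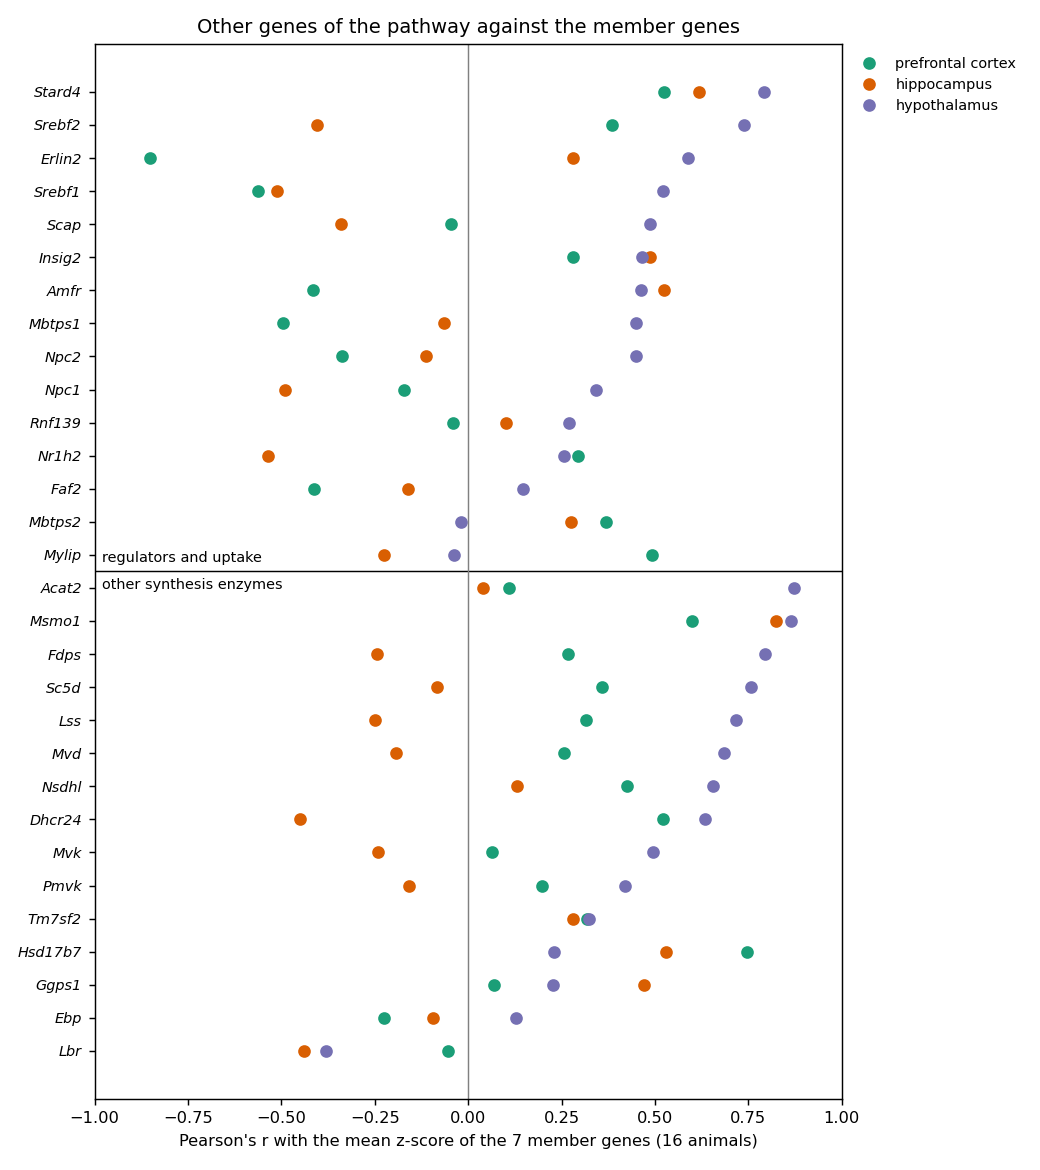
Pearson's r (x axis) of other synthesis enzymes (below the line) and regulators or uptake genes (above it) with the mean z-score of the 7 genes over 16 animals, by brain region. Not every gene of the lists is drawn. In hypothalamus most points lie right of 0, up to Acat2 at 0.87, while in hippocampus points fall on both sides and Msmo1 reaches 0.82.

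Genes most like the set were taken as those, outside it, with the highest smallest r over the 3 brain regions among 13426 genes. They were Tex2 (0.60), Msmo1 (0.60), Adgrl2 (0.56), Gpr89 (0.55) and Lclat1 (0.55), the number being the smallest of the 3 r values, each over 16 animals. Stard4 was in place 13 (0.52). In blood the genes with the highest r were Tcf4 (0.82), Gas7 (0.78), Gm13502 (0.78), Tmed5 (0.77) and Pank3 (0.77) among 7897.

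Cell type markers were then set against the members. The members co-vary, so the signs of the 7 are not independent. Each member was correlated with the mean level of 9 marker lists in each brain region, 189 relations in all, and 0 passed the adjusted permutation threshold. In hypothalamus all 7 members had r below 0 with the 8 neuron markers (-0.72 to -0.43, median -0.63), with the 4 choroid plexus markers in that table (-0.78 to -0.15, median -0.43) and with the 4 red cell markers (-0.66 to -0.18, median -0.45). All 7 were also below 0 with the endothelial (-0.72 to -0.039, median -0.36), meningeal (median -0.34) and microglia markers (median -0.25). They were above 0 with the 9 astrocyte markers (0.11 to 0.61, median 0.44), and 5 of 7 were with the 10 myelin markers (median 0.29) and 4 of 7 with those of oligodendrocyte precursors (median 0.031). Single neuron markers went both ways: against the mean of the 7 members, 4 of 8 had r above 0, from -0.72 to 0.57 with a median of -0.024.

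Several of these relations rested on the 4 hemoglobin-rich hypothalamic libraries. Over the other 12, r with the red cell markers was above 0 for 5 of 7 members (-0.094 to 0.33, median 0.058), and so it was with the choroid plexus markers (-0.56 to 0.18, median 0.12). With the neuron markers all 7 were still below 0 (-0.73 to -0.23, median -0.53), as they were with the endothelial (median -0.48) and meningeal markers (median -0.38). With the astrocyte markers 5 of 7 were above 0 (median 0.28) and with the myelin markers 3 of 7 (median -0.033). With the microglia markers 1 of 7 was above 0 (median -0.20). With the markers of oligodendrocyte precursors 0 of 7 were above 0 (-0.79 to -0.23, median -0.57), in place of 4 of 7 over all 16 libraries. Over all 16 hypothalamic libraries the summed neuron markers ran from 10.5 to 10.8 in controls and from 10.6 to 10.9 in UCMS animals (log2), and the choroid plexus markers from 6.11 to 8.25 and from 6.09 to 7.74.

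With the neuron list taken out of each gene, the hypothalamic members had a median r of 0.47 and 7 called pairs in place of 16. With the choroid plexus list taken out they had 0.61 and 12, and with the first principal component of all genes (31.4% of the variance) taken out, 0.57 and 10. In prefrontal cortex, taking out the choroid plexus list left 0 called pairs and a median r of 0.14. Summed, that list ran there from 5.50 to 11.9 in controls and from 5.15 to 7.54 in UCMS animals. The 11.9 was control replicate 2, with the next control at 7.83, and the same library had the lowest Hmgcs1 (6.20) and Sqle (4.61) of the region. Hmgcs1 had r = -0.81 with the list, and -0.42 without the 2 animals farthest from its median.

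In hippocampus 5 of 7 members had r below 0 with the 7 microglia markers (-0.75 to 0.18, median -0.62), and Dhcr7 and Insig1 had it above 0. Without the 2 animals farthest from the median marker level the median was -0.22, with Hmgcs1 at -0.12 in place of -0.71 and Idi1 at 0.14 in place of -0.62. The highest microglia level was that of UCMS replicate 3, the library low in Hmgcs1. The summed marker level ran from 8.60 to 8.85 in controls and from 8.72 to 9.12 in UCMS animals. All 7 of those markers had a higher mean in UCMS hippocampus, where 6 of 7 members had a lower one. UCMS replicate 3 also had the highest astrocyte mean (7.03) and the highest summed choroid plexus level (12.8) of the region. The latter ran from 5.77 to 12.3 in controls and from 5.91 to 12.8 in UCMS animals. Control replicate 5, at 12.3, had the highest mean z-score of the members (0.91). With the choroid plexus markers 4 of 7 members had r above 0 (-0.38 to 0.33, median 0.016). The part of the microglia markers in the results was otherwise not tested.

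The other pathway genes were also compared between UCMS and control animals, and 0 passed the adjusted threshold in limma. Of the 16 other enzymes, 14 had a higher mean in UCMS prefrontal cortex (median 0.091, all genes 0.0056), 6 in hippocampus, 6 in hypothalamus and 3 of 6 tested in blood. Mvd, the decarboxylase that ends the mevalonate route, had the highest difference in prefrontal cortex, from 3.38 ± 0.22 in controls to 3.66 ± 0.30 in UCMS animals (SD, n = 8 each; limma unadjusted p under 0.05). Ggps1, which makes geranylgeranyl diphosphate, was lowest in prefrontal cortex (-0.18, SE 0.11) and in hippocampus (-0.20, SE 0.10). In the brain mean Ggps1 differed by -0.13 (SE 0.059), under an unadjusted p of 0.05.

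Among regulators and uptake genes, 8 of 16 were higher in UCMS prefrontal cortex, 12 of 16 in hippocampus, 11 of 16 in hypothalamus and 8 of 13 in blood. The highest in hippocampus was Srebf1, the SREBP of fatty acid synthesis (0.16, SE 0.089), and the lowest Stard4 (-0.14, SE 0.098). Npc1, which exports cholesterol from lysosomes, differed by 0.099 there at an unadjusted p under 0.05. Mbtps2, a protease that cuts SREBPs, was the lowest in hypothalamus (-0.11, SE 0.055). Prefrontal cortex had Mylip, a ubiquitin ligase induced by sterols through LXR, at 0.18 (SE 0.10) and the lysosomal carrier Npc2 at -0.13 (SE 0.066).

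In efflux and turnover, the lipoprotein receptor Lrp1 was higher in UCMS hippocampus (6.80 ± 0.071 in controls and 7.0 ± 0.17 in UCMS animals, SD, n = 8 each, limma unadjusted p under 0.05) and in the brain mean (0.10, SE 0.039). Apoe, the main lipid carrier of the brain, had the lowest difference of its list in hippocampus (-0.093, SE 0.084) and blood (-0.62, SE 0.42) and the highest in hypothalamus (0.12, SE 0.15). Of the 9 fatty acid genes all 9 had a higher brain mean in UCMS animals (median 0.046, all genes 0.0011), and Fasn, the fatty acid synthase, had 0.092 (SE 0.040) there and 0.13 (SE 0.052) in hippocampus, both at unadjusted p under 0.05. The desaturase Fads1 was at 0.55 (SE 0.19) in blood at an unadjusted p under 0.05, where 10.8% of all genes were as well.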

How the data were processed

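The authors deposited 1 table of normalized read counts per tissue, which were read as log2 values that had been made equal in distribution between libraries. The labels state neither, and both were inferred from the values. Reads were mapped to build GRCm38.p4 according to the submitters' processing notes. Of aligner, counting tool and use of strand, the sources used here say nothing. Each library came from 1 animal, whose number in its title links its tissues.

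The values were used as deposited. The 10% of genes with the lowest mean in a table were left out (a mean of at least 3.11, 3.18, 3.12 and 2.48 was kept in prefrontal cortex, hippocampus, hypothalamus and blood), and limma 3.58.1 in R 4.3.3 was fitted per tissue with a trended prior variance, two-sided, with Benjamini-Hochberg adjustment at 0.05 over all genes tested. The brain mean used the 3 regions of each animal, and differences between regions used within-animal differences. Relations across animals were given as Pearson's r and as Spearman's rho, each tested by permutation (two-sided, 100000 resamples, Python 3.11.15), and r was given again without the 2 animals farthest from the median of the first gene. The z-score of a gene is its level minus its mean over the libraries of a tissue, divided by the SD. A hemoglobin-rich library is one with Hbb-bs above 12. Scripts were tested on simulated data. Depth is unknown, so no counting interval is given.

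The members, gene lists and tests were chosen with earlier results of these data known. Named genes are the members, and of the pathway lists a selection from those at an unadjusted p under 0.05 or with the highest or lowest difference, plus the 5 genes most like the members (some genes are not reported here); genes named by their correlation with the members were chosen after their values were seen. Removing the neuron list, the choroid plexus list or the first principal component, and counting pairs without each library, were chosen after seeing the data. Promoter sequences are RefSeq's, on GRCm38.p6.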

Additional observations from a re-analysis of the deposited data

Results flagged for a closer look

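Among 54 groups of 7 to 9 libraries (a gene in a tissue and treatment), 11 had 1 library far from the others by Dixon's criterion at the 95% level. Chance flags about 1 in 20 groups, and these groups are not independent, because the genes co-vary and share libraries. In hippocampus 3 libraries gave 6 of the 11 values. UCMS replicate 3 was low for Hmgcs1 (6.01, next lowest 6.23) and Idi1 (3.46, next 3.88). UCMS replicate 6, hemoglobin-rich, was low for Fdft1 (5.18, next 5.43) and Dhcr7 (3.90, next 4.18). Control replicate 7, also hemoglobin-rich, was low for Sqle (4.71, next 4.90) and Cyp51 (4.34, next 4.50).

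In hypothalamus UCMS replicate 1 was low for Sqle (4.98, next 5.27) and Fdft1 (5.68, next 5.98), and its Hbb-bs of 5.07 was not raised. In prefrontal cortex UCMS replicate 3 was low for Fdft1 (5.42, next 5.68) and UCMS replicate 5 was high for Dhcr7 (4.64, next 4.38). In blood control replicate 4, animal C5, was low for Hmgcs1 (0.85, next 2.39).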

How the results depend on the processing

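Of 818 recomputed differences of members, 718 kept their direction and 100 changed sign, in 19 gene and tissue results. None passed the adjusted threshold (smallest limma adjusted p 0.50). The 718 include alternatives that leave the difference itself as it was and so could not change a sign. These were the other shares of genes left out, the prior variance without a trend and the exact permutation test. In the brain, with groups of equal size, the replicate block was another. Cyp51 in hippocampus kept its direction under every alternative, leaving out any 1 library included.

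Without the hemoglobin-rich libraries the sign changed for Insig1 in prefrontal cortex (0.040), hippocampus (0.0028), hypothalamus (0.0075) and the brain mean (0.014), for Hmgcs1 in the brain mean (0.014), and in hypothalamus for Idi1 (-0.0065), Fdft1 (-0.016) and Cyp51 (-0.022). Without the animals numbered BS it changed for Idi1 (0.0039, prefrontal cortex), Insig1 (0.023 in hypothalamus, 8.3e-05 in the brain mean) and, in blood, Idi1 (0.036) and Insig1 (0.022). A myelin covariate turned Cyp51 in prefrontal cortex (-0.0061) and Insig1 in hypothalamus (0.019), and a reticulocyte covariate turned Insig1 in blood (0.0037). The causes were not tested. Leaving out 1 library turned these, given as lowest to highest: in prefrontal cortex Cyp51 (-0.024 to 0.032), Hmgcs1 (-0.030 to 0.038), Idi1 (-0.11 to 0.0097), Insig1 (-0.029 to 0.019) and Sqle (-0.0040 to 0.056); in hippocampus Dhcr7 (-0.020 to 0.058) and Insig1 (-0.034 to 0.0077); in hypothalamus Cyp51 (-0.0073 to 0.048), Fdft1 (-0.015 to 0.073), Idi1 (-0.015 to 0.077), Insig1 (-0.049 to 0.035) and Sqle (-0.036 to 0.055); in blood Cyp51 (-0.11 to 0.27), Hmgcs1 (-0.40 to 0.037), Idi1 (-0.31 to 0.16) and Insig1 (-0.22 to 0.13); in the brain mean Dhcr7 (-0.014 to 0.030), Hmgcs1 (-0.026 to 0.012) and Insig1 (-0.023 to 0.014). Genes past the adjusted threshold in blood came to 1 without UCMS replicate 2 and 0 otherwise.

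Correlations of the deviations of same-numbered control and UCMS animals were above 0 for 7 of 8 numbers in prefrontal cortex (-0.13 to 0.55) and had both signs in hippocampus (-0.37 to 0.51), hypothalamus (-0.45 to 0.30), blood (-0.26 to 0.25) and the brain mean (-0.39 to 0.62). Since not every one was above 0.1, the numbers were not taken to pair the animals. With replicate number as a block, which in blood drops the UCMS animals without a partner, 0 genes passed in any tissue, Cyp51 in hippocampus had unadjusted p = 0.013, and Idi1 (0.036) and Insig1 (0.022) in blood turned.

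Called pairs in hypothalamus (16) came to 4 without the hemoglobin-rich libraries, 7 after the neuron list, 10 after the first principal component and 11 to 17 without 1 library. In prefrontal cortex (2) they came to 4 by Spearman's rho, 0 after the choroid plexus list and 1 to 3 without 1 library. In hippocampus (6) they came to 4 by Spearman's rho, 5 without the hemoglobin-rich libraries and 5 to 7 without 1 library. In blood (3) they came to 0 by Spearman's rho, 1 after the first principal component and 0 to 3 without 1 library. The median r of hippocampal pairs turned to -0.17 without the hemoglobin-rich libraries and ran from -0.11 to 0.44 without 1 library. Depth, length and strand could not be examined.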
